A study of Mus musculus with 6 samples.

Results

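Sfrp1, Sfrp4, Dkk3 and Nkd1 are 4 genes of the Wnt pathway, taken by symbol from a table of 632 genes measured in mouse prostate epithelium with and without E-cadherin. Sfrp1, Sfrp4 and Dkk3 encode secreted proteins of Wnt antagonist families, and Nkd1 encodes an inhibitor inside the cell. Epithelial cells were flow-sorted from the prostates of C57BL/6 mice aged 3 months and their RNA was sequenced. There were 3 libraries from control littermates and 3 from E-cadherin conditional knockout animals. The promoter that drives the recombinase, the floxed allele, the genotype of the controls at these loci and the surface marker used for sorting are not given in these sources. The labels do not say whether libraries of a group came from different animals, so the p-values cover the spread among these 6 libraries, part of which may be technical. The table holds a level for each gene and library in FPKM (sequenced fragments corrected for transcript length and for library size), and the number of reads behind it is unknown. All control titles carry the mark L2 and all knockout titles the mark L7, so genotype and whatever the marks stand for cannot be told apart.

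Wnt proteins bind Frizzled receptors and the co-receptors Lrp5 and Lrp6, which stops the destruction of beta-catenin and lets it act with TCF/LEF factors on target genes. Secreted frizzled-related proteins carry a domain like the Wnt-binding part of Frizzled and can bind Wnt outside the cell. Dickkopf proteins such as Dkk1 block the co-receptors, while Dkk3 is a divergent member of that family and not a typical blocker of them. Nkd1 binds Dishevelled and is itself induced by beta-catenin signalling in many tissues, as negative feedback. E-cadherin holds beta-catenin at adherens junctions through its cytoplasmic tail, which is why these genes are of interest in its knockout. In the mouse prostate, Wnt signals pass between stroma and epithelium, and Sfrp1 has been described in the stroma.

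All 4 genes are protein-coding in the GENCODE M21 annotation (GRCm38). Sfrp1 (ENSMUSG00000031548) lies on chromosome 8 from 23411502 to 23449632 on the plus strand, with 3 exons. Sfrp4 (ENSMUSG00000021319) lies on chromosome 13 from 19623104 to 19632994 on the plus strand, with 6 exons in its principal transcript. Dkk3 (ENSMUSG00000030772) lies on chromosome 7 from 112116017 to 112159057 on the minus strand, with 8 exons. Nkd1 (ENSMUSG00000031661) lies on chromosome 8 from 88521354 to 88594884 on the plus strand, with 10 exons in its principal transcript.

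The secreted frizzled-related genes are relatives, so their coding sequences were compared to see how far reads from one could be taken for another. The closest relative of Sfrp4 among the 4 other family genes was Frzb, with 67.2% identity over 885 aligned coding bases and a longest identical stretch of 27 bases. Sfrp1 was closest to Sfrp5, with 68.3% identity over 915 bases and a longest identical stretch of 26 bases. These stretches stand in capitals within 20 bases of flanking coding sequence on each side, from the GENCODE M21 transcripts in the 5′ to 3′ direction.
Sfrp4: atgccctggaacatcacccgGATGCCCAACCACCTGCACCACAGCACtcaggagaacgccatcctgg
Frzb: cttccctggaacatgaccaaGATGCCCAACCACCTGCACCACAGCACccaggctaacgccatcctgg
Sfrp1: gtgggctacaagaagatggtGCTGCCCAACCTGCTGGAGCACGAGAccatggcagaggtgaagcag
Sfrp5: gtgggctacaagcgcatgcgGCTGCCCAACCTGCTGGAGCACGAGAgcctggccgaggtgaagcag
Sfrp1 and Sfrp4 shared no coding stretch longer than 10 bases with each other. Dkk3 shared at most 11 bases with Dkk1, Dkk2 or Dkk4, and Nkd1 at most 20 bases with Nkd2. None of the 4 genes therefore has a near-identical copy within its own family, although the read length is not given in these sources.

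The table leans towards genes with higher knockout levels, which is the background for the 4 genes. Differences were tested with limma on log2(FPKM + 1) over all 632 genes, adjusted by Benjamini-Hochberg over that number, and genes under 0.05 were called. The test called 72.6% of the 632 genes, 65.3% as higher and 7.28% as lower. Group values did not overlap for 82.6% of the genes, and for 66.9% with knockout higher. The authors had selected the 632 genes by a rule that these sources do not give, and ratios of means close to 1 are rare among them. With 1% bounds, rises began at a log2 ratio of 0.56 and falls at -0.26. Since the choice of genes rests on the same libraries, the p-values of the 4 genes are descriptions and add no independent support. The median listed gene had a 1.91-fold higher mean in knockout, a log2 shift of 0.93, over 622 genes with a finite ratio. Values are also given on a scale centred on that median, where about as many listed genes lie under 0 as above it by construction. For it, knockout values are divided by the median ratio before log2(FPKM + 1) is taken, so differences of low genes are understated. Without centring, Sfrp1, Sfrp4 and Dkk3 were called higher, 3 of 4 genes, and Nkd1 was not called. This is a share of 75.0%, and 4 genes are too few to set it apart from the background of 65.3%.

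Sfrp1 was at 4.20, 5.26 and 3.64 FPKM in control libraries 1, 2 and 3, and at 10.4, 9.74 and 10.3 FPKM in knockout libraries 1, 2 and 3. The groups did not overlap, and the knockout libraries lay closer to each other than the control libraries did. The mean rose from 4.37 ± 0.82 to 10.1 ± 0.34 FPKM (SD, n = 3 per group), a 2.32-fold ratio. The limma difference on the log2(FPKM + 1) scale was 1.06 (SE 0.16, 95% interval 0.68 to 1.44, adjusted p = 0.0024). The ratio lay between 2.14-fold and 2.58-fold when any 1 library was left out, and all of these remained called. On the scale centred on the median listed gene the difference was 0.25 and not called (limma adjusted p = 0.291).

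Sfrp4 had the largest ratio of the 4 genes and the lowest level. It was at 0.565, 0.507 and 0.405 FPKM in the control libraries and at 2.34, 2.13 and 1.46 FPKM in the knockout libraries. Every knockout library was above every control library, and knockout library 3 was the lowest of its group. The mean rose from 0.492 ± 0.081 to 1.98 ± 0.46 FPKM (SD, n = 3 per group), a 4.02-fold ratio. The limma difference on the log2(FPKM + 1) scale was 0.99 (SE 0.14, 95% interval 0.64 to 1.33, adjusted p = 0.0023). This scale understates the change of low genes, and with a pseudocount of 0.1 the difference was 1.79. The ratio was 4.54-fold without knockout library 3, the highest of the 6 values with 1 library left out, and 3.65-fold without knockout library 1, the lowest. On the scale centred on the median listed gene, 71 of the 632 listed genes were called higher. Among the 4 genes, Sfrp4 alone was still called higher there, by 0.44 (limma adjusted p = 0.0221). By size of ratio it was in place 61 of the 622 listed genes with a finite ratio, Sfrp1 in place 214, Dkk3 in place 414 and Nkd1 in place 446.

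Dkk3 was at 2.60, 3.97 and 3.42 FPKM in the control libraries and at 4.55, 5.66 and 5.49 FPKM in the knockout libraries. The groups did not overlap, but the gap between control library 2 and knockout library 1 was narrow, 0.20 on the log2 scale. The mean rose from 3.33 ± 0.69 to 5.23 ± 0.60 FPKM (SD, n = 3 per group), a 1.57-fold ratio, and it was lower by 0.20, without a call, on the scale centred on the median listed gene. The limma difference was 0.53 (SE 0.17, 95% interval 0.12 to 0.95, adjusted p = 0.0298). Its ratio was near the lower bound of the rises in the table. The call was lost without control library 1 (limma adjusted p = 0.0918), control library 3 (0.0525), knockout library 2 (0.101) or knockout library 3 (0.0871), with ratios of 1.42-fold to 1.59-fold.

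Nkd1, the feedback inhibitor, was the most abundant of the 4 genes. It was at 28.4, 29.3 and 35.4 FPKM in the control libraries and at 30.2, 26.7 and 20.7 FPKM in the knockout libraries. The groups overlapped, since knockout library 1 was above control libraries 1 and 2. The mean was 31.1 ± 3.81 FPKM in control and 25.9 ± 4.77 FPKM in knockout (SD, n = 3 per group), a ratio of 0.833. The limma difference was -0.26 (SE 0.18, 95% interval -0.69 to 0.16), which did not pass (adjusted p = 0.196). This interval leaves room for a fall or for a small rise. The difference lay between -0.38 and -0.12 with 1 library left out and was called under none of these. It was at the edge of the falls in the table, and 5 of the 181 listed genes with a finite ratio under 1 had a ratio at or above that of Nkd1, itself included. On the scale centred on the median listed gene Nkd1 was lower by 1.15 (limma adjusted p = 0.0022). Centring lowers every gene, and 163 of the 632 listed genes were called lower there, beside 46 without it.

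**Figure D1:**
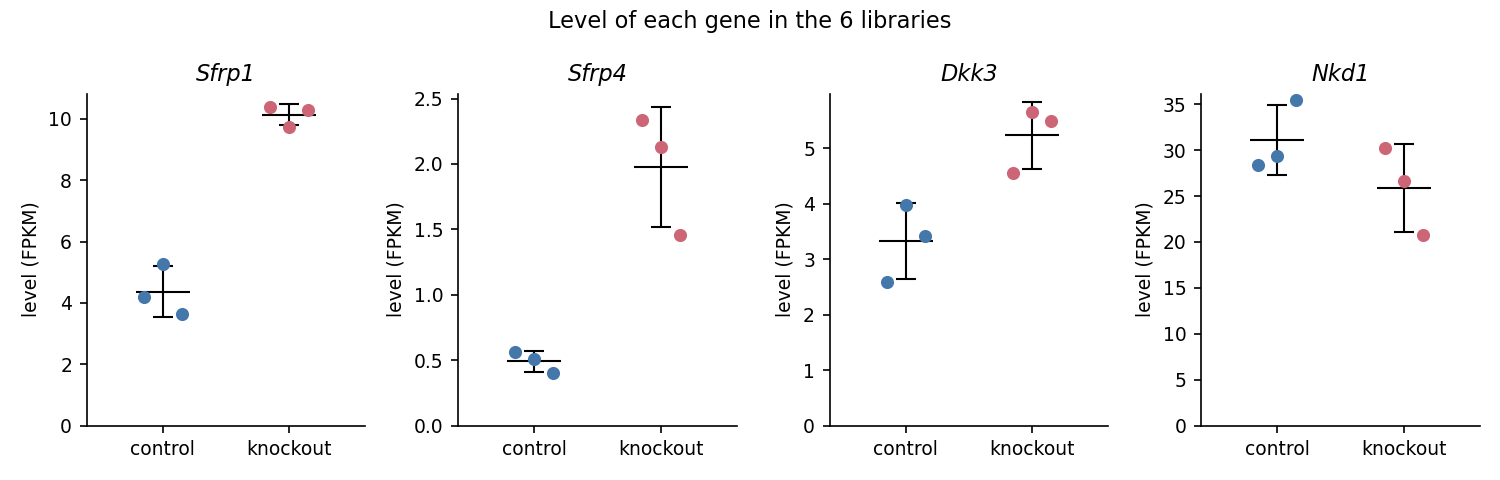
Level in FPKM of Sfrp1, Sfrp4, Dkk3 and Nkd1 (vertical axes from 0) in the 3 control and 3 knockout libraries, with points for libraries 1 to 3 from left to right, a long bar for the mean and error bars for the SD. The groups are apart for Sfrp1, Sfrp4 and Dkk3 (Dkk3 is lower in knockout, by 0.20 and without a call, when centred on the median listed gene) and overlap for Nkd1.

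With 3 libraries against 3, an exact two-sided permutation test of a single gene cannot go below p = 0.1. This exact permutation test gave p = 0.1 for Sfrp1, Sfrp4 and Dkk3 and p = 0.3 for Nkd1.

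The order of the levels was the same in all 6 libraries, Nkd1 first, then Sfrp1, Dkk3 and Sfrp4. Setting levels of different genes side by side takes the values as FPKM from reads along the whole transcript. The unit was inferred and the labels also name a droplet 3′ kit, for which length scaling would distort levels between genes, so this order and the sum of levels hold only under that reading. Sfrp1 and Dkk3 were neighbours whose control values overlapped, 3.64 to 5.26 and 2.60 to 3.97 FPKM, and whose knockout values did not. A ratio of levels within a library does not depend on library size, and its difference between groups does not depend on transcript length. The level of Sfrp1 was 1.62, 1.32 and 1.06 times that of Dkk3 in control libraries 1, 2 and 3 and 2.28, 1.72 and 1.87 times in the knockout libraries. The level of Nkd1 was 5.58 to 9.73 times that of Sfrp1 in control libraries and 2.02 to 2.90 times in knockout libraries. The groups did not overlap in either ratio in these 6 libraries. The gap for Sfrp1 over Dkk3 was narrow, between 1.62 in control library 1 and 1.72 in knockout library 2. Whether the levels of Sfrp1, Dkk3 and Nkd1 differed between groups by unlike factors was not tested. The share of all pairs of listed genes without such overlap was not computed. The summed level of the 3 secreted antagonists was 7.37, 9.74 and 7.47 FPKM in control libraries and 17.3, 17.5 and 17.2 FPKM in knockout libraries.

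**Figure D2:**
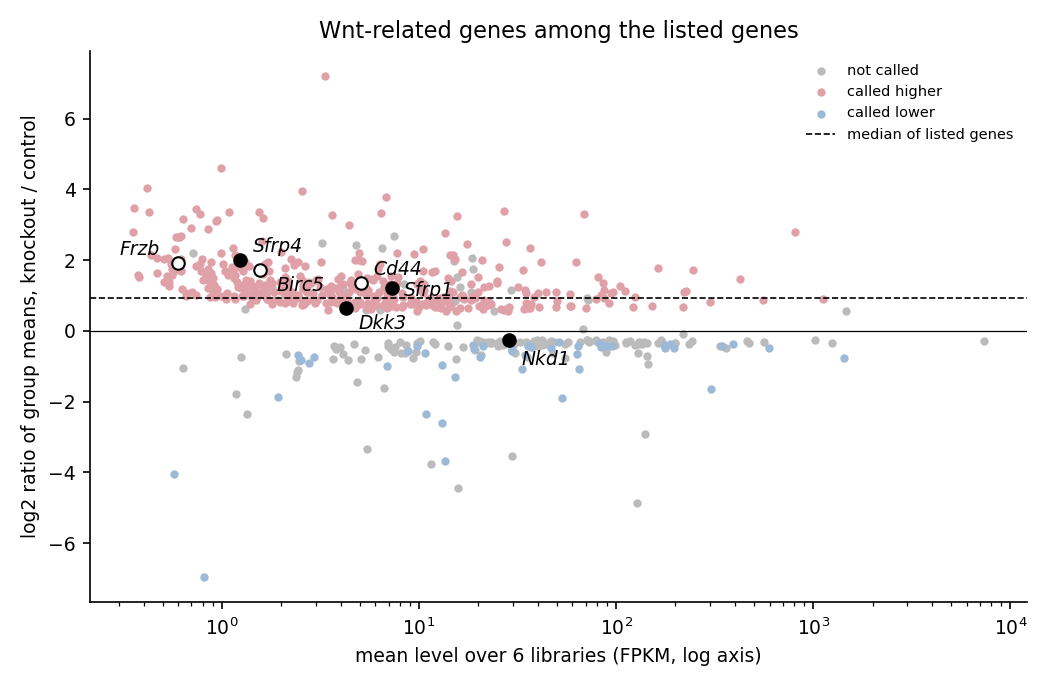
Log2 ratio of group means, knockout over control, against the mean level over the 6 libraries (FPKM, log axis), 1 point for each of the 622 listed genes with a finite ratio. Black points are Sfrp1, Sfrp4, Dkk3 and Nkd1, open circles are the other listed Wnt pathway genes, and the dashed line is the median of 0.93. Dkk3 and Nkd1 lie under that line, and Nkd1 lies at the edge of the sparse band between falls and rises.

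Few other genes of the pathway were in the table. Of 115 further genes on 6 lists of Wnt ligands, receptors, R-spondins, antagonists, intracellular components and common targets, 3 were listed, and limma called all 3 as higher, beside 65.3% of all listed genes, and none of the 3 on the centred scale. None of 19 ligands, 16 receptors and co-receptors or 9 R-spondin pathway genes was listed, and these were not analysed here. Among 23 secreted and surface antagonists 4 were listed, the 3 described above and Frzb, which encodes another secreted frizzled-related protein. All 4 were called higher, beside 65.3% of all listed genes, and 3 of these 4 are the genes chosen for description. Dkk3 was the 1 of the 4 that was lower on the centred scale. Their median ratio was 2.96-fold, beside 1.91-fold over all listed genes. The 1.91-fold median includes 181 listed genes with a ratio under 1, so the 2 medians are of unlike sets. A median over the listed rises alone was not computed, so these medians do not set the antagonists apart. The 4 ratios ranged from 1.57-fold for Dkk3 to 4.02-fold for Sfrp4.

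Frzb was at 0.181, 0.359 and 0.208 FPKM in control libraries and 0.877, 0.705 and 1.25 FPKM in knockout libraries, a 3.78-fold ratio (limma adjusted p = 0.0062). With it, 3 of the 5 secreted frizzled-related genes were in the table, and in all 3 every knockout library was above every control library, as in 66.9% of all listed genes. Of 30 intracellular components Nkd1 alone was listed. Of 32 common target genes 3 were listed, Nkd1, which did not pass, and Cd44 and Birc5, which did. Cd44, the hyaluronan receptor gene, was at 3.35, 3.12 and 2.10 FPKM in control and 7.74, 6.67 and 7.41 FPKM in knockout libraries, a 2.55-fold ratio (limma adjusted p = 0.0028). Birc5, which encodes the mitotic and survival protein survivin, was at 0.729, 0.759 and 0.692 FPKM and at 2.11, 1.62 and 3.43 FPKM, a 3.28-fold ratio (limma adjusted p = 0.0069). Among the listed target genes, the mean was higher in knockout for Cd44 and Birc5 and lower for Nkd1, whose direction is not settled. The target genes not listed were not analysed here. On the scale centred on the median listed gene, Frzb, Cd44 and Birc5 were higher by 0.26, 0.33 and 0.36 and not called. That scale uses log2(FPKM + 1) and understates low genes. Their log2 ratios of means were 1.92, 1.35 and 1.71, beside the median of 0.93 over listed genes. None of 9 genes for E-cadherin, other classical cadherins and catenins was listed, so neither the knocked-out gene nor beta-catenin was analysed here, and the genotype labels could not be checked.

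The listed markers of other cell types were also higher in knockout, in a table where 65.3% of all genes were called higher, and the markers not listed were not analysed here. The cells had been flow-sorted as epithelial, with a gate that these sources do not give. Of 18 fibroblast markers 5 were listed, Col1a1, Col1a2, Lum, Fbln1 and Thy1, and all 5 were called higher, with a median ratio of 1.55-fold, and on the centred scale 4 of the 5 lay under 0, without a call. Their summed level was 86.6 to 111 FPKM in control and 148 to 154 FPKM in knockout libraries, and no single value of the 5 was under 4.79 FPKM. Of 8 leukocyte markers 5 were listed and all 5 were called higher (1 of the 5 lower on the centred scale), with summed levels of 65.6 to 74.4 FPKM in control and 130 to 142 FPKM in knockout libraries. Of 5 basal epithelial keratin and regulator genes 4 were listed, Krt5, Krt14, Krt15 and Krt17, and all 4 were called higher (2 of the 4 lower on the centred scale), with summed levels of 84.0 to 113 and 164 to 198 FPKM. None of 7 luminal epithelial, 9 smooth muscle, 6 endothelial or 4 Schwann cell markers was listed, so basal markers were the only epithelial ones to look at. Fibroblast and leukocyte markers were also present in control libraries, with mean sums of 96.4 and 69.2 FPKM, beside 94.4 FPKM for the basal markers. Under the FPKM reading, the control libraries thus held RNA of genes used as markers of non-epithelial cells. The 3 sums are over unlike sets of genes, without any luminal marker, so they do not compare amounts of the cell types. The purity of the sorted cells was not tested. In such bulk samples, a larger share of cells of a type and more RNA per cell cannot be told apart. The part of these cell types in the differences of Sfrp1, Sfrp4 and Dkk3 was not tested.

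Set against the fibroblast markers, the 3 antagonists differed from each other. The level of Sfrp1 was 4.85%, 4.75% and 3.97% of the summed fibroblast marker level in control libraries and 6.74%, 6.58% and 6.78% in knockout libraries, a 1.48-fold ratio of means. The level of Sfrp4 was 0.652%, 0.458% and 0.442% of that sum in control libraries and 1.52%, 1.44% and 0.961% in knockout libraries, a 2.53-fold ratio. Both genes kept groups that did not overlap. The level of Dkk3 was 3.00%, 3.59% and 3.73% of that sum in control libraries and 2.96%, 3.82% and 3.62% in knockout libraries, and the groups overlapped. Dkk3 and the summed fibroblast markers thus differed between groups by nearly the same ratio, 1.57-fold and 1.57-fold. The single markers ranged from 1.47-fold for Col1a1 to 2.08-fold for Lum. Genes outside the fibroblast list also had a 1.57-fold ratio, such as Tbc1d2b and Fosl2, so the match is not particular to these markers. The level of Nkd1 was 32.8%, 26.5% and 38.6% of that sum in control libraries and 19.6%, 18.0% and 13.7% in knockout libraries, where the sum itself was higher.

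Relative to the summed leukocyte markers, Sfrp4 was 2.06-fold and Sfrp1 1.20-fold higher in knockout, with no overlap for either, and Dkk3 overlapped. Lyz2 made up most of this sum, with means of 59.5 of 69.2 FPKM in control and 113 of 134 FPKM in knockout. Single ratios were 1.91-fold for Lyz2, 1.95-fold for Csf1r, 2.03-fold for Adgre1, 2.53-fold for Ptprc and 9.77-fold for Cd79a. The ratio of Sfrp1, 2.32-fold, was under those of Ptprc and Cd79a, and that of Sfrp4, 4.02-fold, under that of Cd79a. Cd79a was low, at 0.222, 0.0849 and 0.127 FPKM in control libraries 1, 2 and 3, so its ratio is uncertain at unknown depth. Relative to the summed basal markers, Sfrp4 was 2.12-fold higher with no overlap, while Sfrp1 and Dkk3 overlapped. Krt15 made up most of this sum, with means of 56.2 of 94.4 FPKM in control and 112 of 178 FPKM in knockout. Single basal ratios ranged from 1.52-fold for Krt5 to 4.62-fold for Krt17. The ratio of Sfrp4, 4.02-fold, was under that of Krt17 and above those of Krt5, Krt14 and Krt15. Sfrp4 was the member with a higher relative level against all 3 marker sums by more than 2-fold, and Dkk3 overlapped against each of them. The sums hold only markers that the authors had listed from these same libraries, all called higher, so these relative levels are descriptions of the sums. The share of all listed genes without overlap against the sums was not computed.

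**Figure D3:**
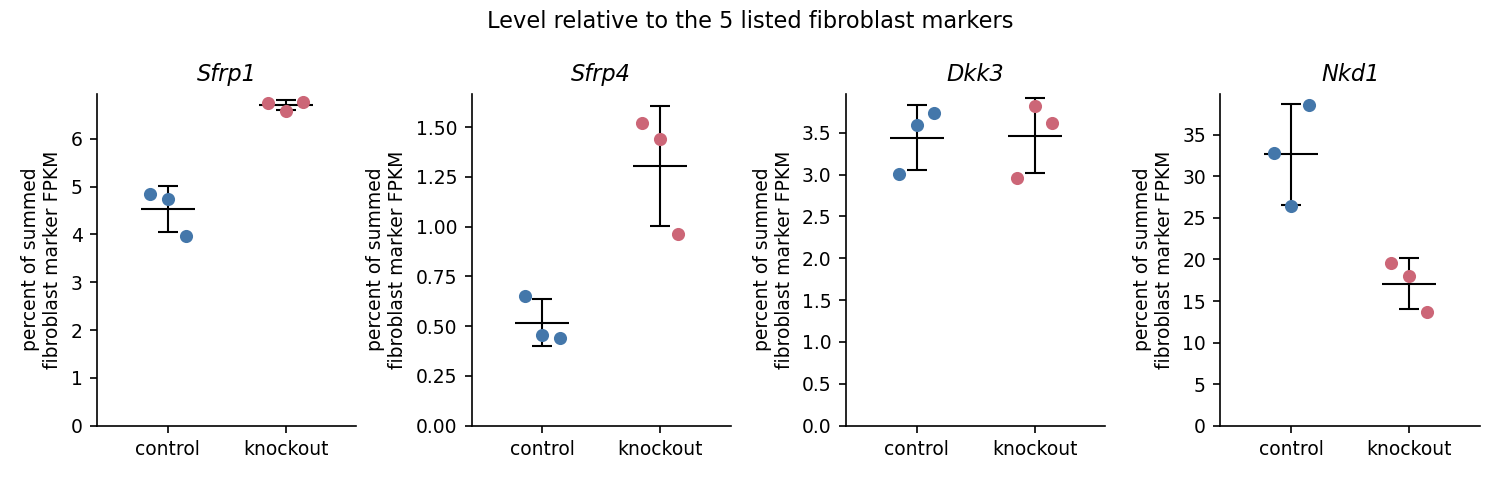
Level of each gene as a percent of the summed FPKM of Col1a1, Col1a2, Lum, Fbln1 and Thy1 in the same library (vertical axes from 0), with points for libraries 1 to 3 from left to right, a long bar for the mean and error bars for the SD. Sfrp1 and Sfrp4 are apart between groups and higher in knockout, Dkk3 overlaps at 2.96% to 3.82%, and Nkd1 is apart and lower in knockout.

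The genes whose levels followed each member most closely were taken by Pearson's r of log2(FPKM + 1) over the 6 libraries, among 599 other listed genes with a symbol that is not a predicted or clone name. These r are descriptions over 2 groups of libraries and mostly carry the difference between the groups, so many genes score high. Genes chosen by r over these libraries tend to share a member's highest and lowest library by that choice. For Sfrp1, 221 of the 599 genes had r over 0.95. The first were Isg15, an interferon-induced ubiquitin-like modifier (r = 0.999), Mrc1, the macrophage mannose receptor gene (r = 0.998), and S100a11, a calcium-binding protein gene (r = 0.998). For Sfrp4, 65 genes had r over 0.95, led by the potassium channel gene Kcnk5 (r = 0.998), the interferon-induced Mx2 (r = 0.993) and Vill, a villin-like gene (r = 0.990). These 3 genes were, like Sfrp4, lowest in knockout library 3 among the knockout libraries.

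For Dkk3, 21 genes had r over 0.95, led by Matn2, an extracellular matrix protein gene (r = 0.977), Mndal (r = 0.974) and Tcirg1, a proton pump subunit gene (r = 0.972). These 3 genes were lowest in control library 1 among all 6, as Dkk3 was. For Nkd1, 1 gene had r over 0.95, Fam25c (r = 0.954), followed by Spin2e (r = 0.947) and Crabp1, which encodes a retinoic acid-binding protein (r = 0.938). All 3 were, like Nkd1, highest in control library 3 and lowest in knockout library 3, and none of them was called. Knockout library 3 was at 22.9 FPKM for Fam25c, beside 51.6 and 47.6 FPKM in the other knockout libraries. It was at 10.5 FPKM for Crabp1, beside 33.9 and 35.2 FPKM.

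**Figure D4:**
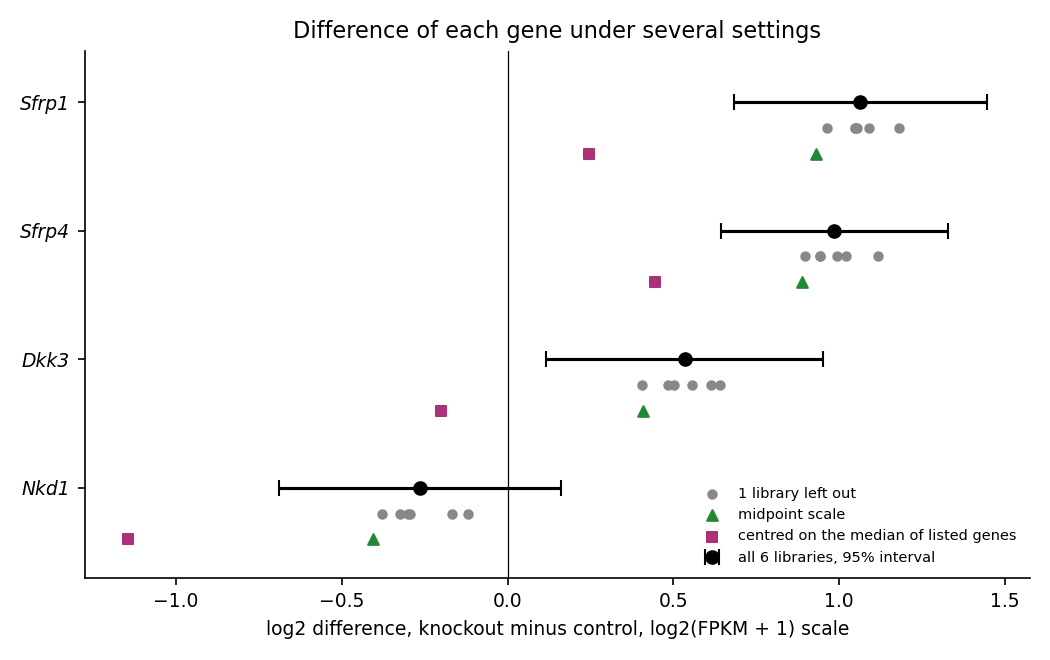
Log2 difference of each gene, knockout minus control, on the log2(FPKM + 1) scale, with the 95% limma interval from all 6 libraries, the values with 1 library left out (grey), and 2 other scalings (triangles and squares). Dkk3 turns from 0.53 to -0.20 when centred on the median listed gene, while Sfrp1 and Sfrp4 are above 0 and Nkd1 is under 0 in all settings drawn.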

How the data were processed

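The deposited table holds 632 genes with a value per library and a mean per group. Cufflinks 2.2.1, Cuffdiff, TopHat2 2.0.14 and the build GRCm38 are named, per the submitters' processing notes, with no role or order. Values were read as FPKM computed by the authors, a unit inferred from these tools, since the header names none. The labels name both a bulk and a droplet library kit, and which was used is not settled. The depth is unknown (the listed genes sum to between 31468 and 36565 FPKM in a library). All 632 identifiers matched GENCODE M21.

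Genes were tested with limma 3.58.1 in R 4.3.3 on log2(FPKM + 1), using a prior that depends on the mean, 3 control against 3 knockout libraries grouped by the genotype label, and this step was tested on simulated data. The genes described, the lists and the rule for named genes (the 4 genes, every listed gene of the lists, and the 3 genes most like each by r) were chosen with earlier results of these data known. Ratios to marker sums were added after the values were seen. Python 3.11.15 with pandas 2.3.3 was used. The TCF/LEF core TCAAAG was searched on both strands in RefSeq windows of 300 bases around annotated transcript starts (GRCm38.p6). It was in 16.0% of 32851 windows and not in the 1 window held for these genes. That window begins at 88527383 on chromosome 8, inside the span of Nkd1 and downstream of the gene start at 88521354, so the sequence at the gene start was not searched.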

Additional observations from a re-analysis of the deposited data

How the results depend on the processing

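The differences of Sfrp1, Sfrp4 and Nkd1 kept their direction under every alternative run, and that of Dkk3 under every one but centring on the median listed gene. On that scale the log2 differences were 0.25 for Sfrp1 (not called), -0.20 for Dkk3 and -1.15 for Nkd1 (called lower), with 1 of the 4 genes, 0 other Wnt pathway genes and 71 listed genes called higher and 163 called lower. On the midpoint scale, knockout values are lowered by 0.15 on the log2 scale. This puts the middle of the sparse band between falls and rises at 0. Dkk3 was then at 0.41 (limma adjusted p = 0.0626) and Nkd1 at -0.41 (limma adjusted p = 0.0666), without a call for either. On this midpoint scale 119 listed genes were called lower. With p-values adjusted over the 21951 protein-coding genes of the annotation, treating unlisted ones as unchanged, none of the 4 genes passed limma, at unchanged differences of 1.06 for Sfrp1 (adjusted p = 0.0830), 0.99 for Sfrp4 (adjusted p = 0.0799) and 0.53 for Dkk3 (adjusted p = 1). There, 0 other Wnt pathway genes, 23 listed genes as higher and 1 as lower were called, while 3 of the 4 genes had an unadjusted p under 0.05. At a threshold of 0.01, Dkk3, at 0.53, was not called, and 8 listed genes were called lower. With 1 library left out, the differences were 0.96 to 1.18 for Sfrp1, 0.90 to 1.12 for Sfrp4, 0.41 to 0.64 for Dkk3 and -0.38 to -0.12 for Nkd1, with 2 to 3 of the 4 genes called higher, 365 to 410 listed genes called higher and 20 to 79 called lower. The causes were not tested. A pseudocount of 0.1, a minimum mean of 1 FPKM and a single prior variance changed no call of the 4 genes. Frzb, Cd44 and Birc5 kept their calls with any 1 library left out. No paired analysis was possible because the titles share no replicate numbers. The unknown depth limits what can be said of Sfrp4 and Frzb, the lowest of the Wnt genes.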
